A study of Homo sapiens with 12 samples.

Results

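The collagen chains of MIO-M1 cells were examined as a family: 41 gene symbols of the form COL, number, A, number, among the 33616 symbols that the array assigns to a single probe set or more. A probe set is the group of probes that reads 1 transcript, and only the 36176 of 135750 probe sets that carry exactly 1 gene symbol were used. Where a symbol had several, the probe set with the highest mean over the 12 arrays stood for it. By structure, 10 members were fibrillar chains, 6 were chains of the basement membrane collagen IV, 5 were chains of the beaded filament collagen VI, and 20 belonged to other classes (10 FACIT chains, which sit on the surface of fibrils, 3 short-chain network formers, 3 transmembrane collagens, 2 multiplexins and 2 of no class). COL3A1 and COL7A1 share their probe sets with a second symbol and COL17A1 was not listed with a probe set, so these 3 chains were not analysed here.

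MIO-M1 is an established human Müller glial cell line. The study put a DMPK minigene (exons 11 to 15) under a Tet-inducible promoter, in MIO-M1 cells that all carry the Tet3G activator driven by a CMV promoter and that derive from 1 selected clone. The minigene of MIO-M1-CTG(648) carries 648 CTG repeats, the kind of expansion that causes myotonic dystrophy type 1, and that of MIO-M1-CTG(0) carries 0. Each line was kept with doxycycline (Dox, 1 µg/mL for 8 days) or without it, with 3 biological replicates in each of the 4 groups: Dox-induced MIO-M1-CTG(648), non-induced MIO-M1-CTG(648), Dox-induced MIO-M1-CTG(0) and non-induced MIO-M1-CTG(0). Since each repeat length is 1 cell line, an effect of the repeat and a difference between the 2 lines (insertion site included) cannot be told apart in a comparison across lines.

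Collagens are trimers of alpha chains wound into a triple helix. Fibrillar collagens such as types I, V and XI form the tensile fibrils of the matrix, collagen IV forms the sheet of basement membranes, and collagen VI forms beaded filaments near the cell surface. In the retina the end feet of Müller glia rest on the inner limiting membrane, a basement membrane that holds collagen IV and collagen XVIII, and the adjoining vitreous holds thin fibrils of collagens II, V/XI and IX.

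Signals are log2 values as deposited, so a difference of 1 is a doubling. The 12 arrays were alike in their median signal (4.24 to 4.32), the lowest correlation between arrays of a group was 0.98, and the first principal component (21.8% of the variance) separated the 2 lines. A chain was counted as higher or lower when its log2 fold change exceeded 0.5 in size with an unadjusted limma p under 0.005. Of the Müller glia markers, VIM, GLUL and SOX9 were bright on every array (13.36 to 17.73), whereas RLBP1, KCNJ10 and AQP4, markers of the mature cell, were at 2.61 to 4.42, near or below the array median. The fibroblast and pericyte markers summed to a log2 signal of 15.80 to 15.98 in Dox-induced and 16.15 to 16.33 in non-induced MIO-M1-CTG(648) cells, and of 16.62 to 17.18 with Dox and 16.63 to 16.73 without it in MIO-M1-CTG(0), so the ranges were apart in the CTG(648) line and overlapped in the CTG(0) line. In MIO-M1-CTG(648) the sums were also apart, lower with Dox, for the Müller markers (18.40 to 18.50 with Dox, against 18.65 to 18.74 without it), the endothelial markers (10.73 to 10.80, against 10.92 to 11.23) and the neuronal markers (10.20 to 10.38, against 10.58 to 11.16). These sums are linear, so the brightest genes of a list weigh most. Gene by gene, 4 of 12 Müller, 4 of 6 endothelial and 4 of 5 neuronal markers had log2 fold changes above 0 with Dox in that line. Among the neuronal markers the bright SYT1 changed by -0.54 and SNAP25 by 0.54, and the Müller marker SLC1A3 changed by 0.71. In MIO-M1-CTG(0) the neuronal sum was apart and higher with Dox (9.33 to 9.56, against 8.84 to 9.24), as was that of the pigment epithelial markers (7.94 to 8.12, against 7.53 to 7.72). All other such pairs of ranges overlapped. The DMPK probe set does not separate minigene RNA from the cells' own DMPK. Its signal was 9.55 to 9.82 in Dox-induced and 10.00 to 10.32 in non-induced MIO-M1-CTG(648) cells, lower with Dox without overlap. In MIO-M1-CTG(0) cells it was 8.49 to 8.63 with Dox and 7.73 to 8.22 without it. The probe set gives no check of the induction in MIO-M1-CTG(648). The study checked the minigene RNA by RT-PCR with a primer that reads it alone, after a shorter time with Dox. In bulk RNA of this kind, a smaller share of cells making a collagen and less of its RNA per cell cannot be told apart.

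Of the 41 members, 30 had a mean of at least 5 in a group and 11 did not. COL1A2, the alpha 2 chain of collagen I, was bright everywhere, at 17.77 to 17.88 in Dox-induced and 17.91 to 18.25 in the non-induced CTG(648) line, against 17.62 to 17.69 with Dox and 17.47 to 17.73 without it in MIO-M1-CTG(0). The spread between replicates of the 30 brighter members, pooled over the groups, had a median SD of 0.273 and reached from 0.082 for COL6A2 to 0.553 for COL10A1.

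Contrast A asked which genes Dox changed in MIO-M1-CTG(648) cells. Of the 41 chains, 7 were lower in Dox-induced than in non-induced cells, where 1.14% of all 36176 probe sets were lower, and 0 were higher, where 1.28% of all probe sets were. The other 34 did not pass. With limma at an unadjusted p under 0.05, 14 chains were lower (5.14% of all probe sets) and 1 was higher (5.63%). The study's methods name limma for the arrays and, in general, an unpaired t-test for comparing 2 groups. Applied here to the arrays, the methods' t-test put 3 chains past the threshold, all lower (on that test 0.545% of all probe sets were lower and 0.586% higher). The median log2 fold change of the 41 was -0.19, against 0.01 over all probe sets, and 27 of the 41 values lay below 0 and 14 above it. The 3 arrays of one group did not overlap those of the other for 17 chains that were lower and 2 that were higher, where 7.92% of all probe sets were lower and 9.04% were higher without overlap. After Benjamini-Hochberg adjustment over all 36176 probe sets, 2 of the 7 remained, COL11A1 and COL14A1 (0.282% of all probe sets were lower on that rule).

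**Figure D1:**
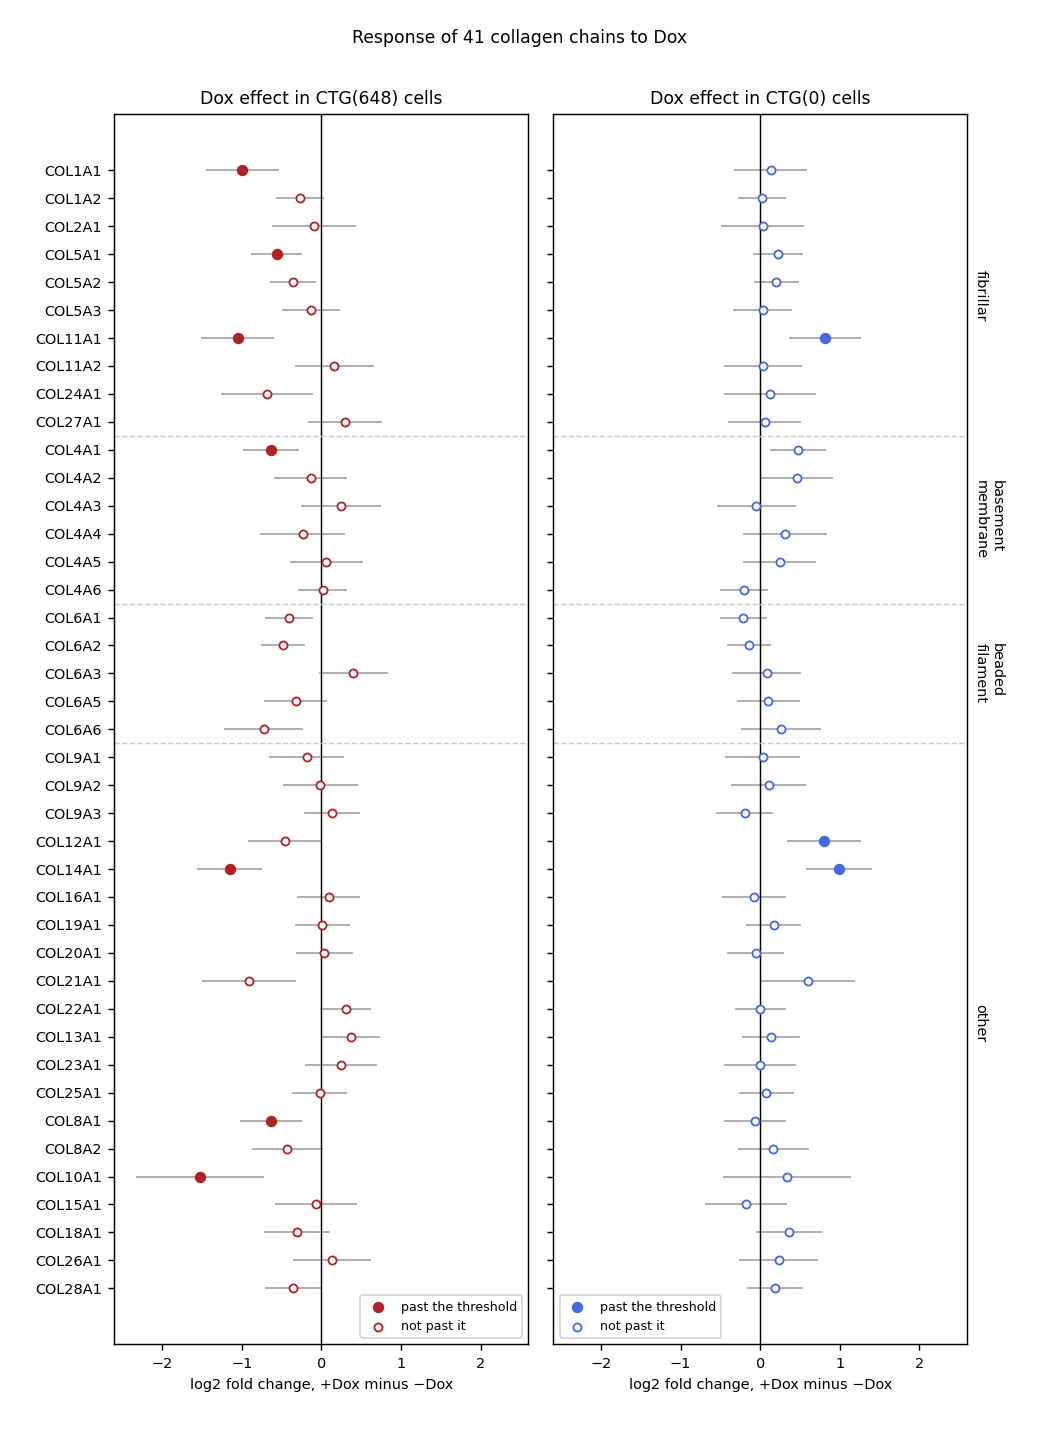
The log2 fold change (horizontal axis, Dox-induced minus non-induced) of each of the 41 chains in MIO-M1-CTG(648) cells (left) and MIO-M1-CTG(0) cells (right), grouped by class from top to bottom, with lines for the 95% confidence interval and filled points for chains past the threshold. The 7 filled points on the left lie below 0, from -1.52 to -0.56, and the 3 on the right lie above it, from 0.80 to 0.99.

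The 7 chains came from 3 of the 4 classes: the fibrillar COL1A1, COL5A1 and COL11A1, the basement membrane chain COL4A1, the FACIT chain COL14A1 and the short-chain network formers COL8A1 and COL10A1. COL14A1, whose product binds the surface of collagen I fibrils, gave 12.50, 12.38 and 12.38 on the 3 Dox-induced arrays of the CTG(648) line, against 13.87, 13.57 and 13.28 in non-induced cells. Every induced array lay below every non-induced one, and the signal fell 2.22-fold (log2 fold change -1.15, standard error 0.19, adjusted p = 0.0124). COL11A1, a chain of the collagen XI that nucleates thin fibrils in cartilage and vitreous, gave 11.63, 11.83 and 11.70 with Dox, against 13.11, 12.58 and 12.62 without it. Here too the groups did not overlap (log2 fold change -1.05, standard error 0.21, adjusted p = 0.0403).

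COL1A1, the alpha 1 chain of collagen I, had signals of 13.20, 12.86 and 13.18 in Dox-induced cells, against 14.49, 13.87 and 13.87 in the non-induced CTG(648) line. It was 2.00-fold lower, with a 95% confidence interval of -1.46 to -0.54 on the log2 scale, and its adjusted p of 0.0577 missed the 0.05 limit. COL5A1, the chain of collagen V that limits the width of collagen I fibrils, gave 14.05, 14.03 and 13.95 with Dox, against 14.64, 14.46 and 14.62 without it. This was the smallest fall of the 7 (log2 fold change -0.56, adjusted p = 0.127).

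COL10A1 encodes collagen X, known from the growth plate, and gave 4.44, 3.49 and 3.94 in Dox-induced cells, against 6.47, 4.83 and 5.14 in the non-induced CTG(648) line. The groups did not overlap, but the induced arrays lay near the array medians and the replicates spread widely (log2 fold change -1.52, standard error 0.37, adjusted p = 0.106). Without replicate 2 of the Dox-induced cells the call was lost, and without replicate 1 of the non-induced cells the log2 fold change was -1.03. COL8A1, a chain of the collagen VIII found in vessel walls and in the basement membrane of the cornea, gave 12.51, 12.00 and 12.48 with Dox, against 13.13, 12.95 and 12.81 without it. Its fold change was -0.63 on the log2 scale (adjusted p = 0.171). It passed in 7 of the 12 fits that left out 1 array, and in 6 of 13 other ways of processing the values. COL14A1, COL11A1 and COL1A1 passed in all 12 such fits, COL5A1 in 8, and COL4A1 in 10, lost without replicate 3 of either CTG(648) group.

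COL4A1, the alpha 1 chain of collagen IV, gave 7.69, 7.66 and 7.40 in Dox-induced cells, against 8.08, 8.04 and 8.52 in the non-induced CTG(648) line. It fell by 0.63 on the log2 scale (adjusted p = 0.130). COL6A1 and COL6A2 also lay lower on every induced array, by -0.41 and -0.48 on the log2 scale, but within the 0.5 limit. The other fibrillar chain with a difference of that size, COL24A1, had a log2 fold change of -0.68 with a 95% confidence interval of -1.26 to -0.10 and did not pass.

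The study's design sets aside genes that Dox also changed in MIO-M1-CTG(0) cells. Rerun here on the deposited values, which need not keep the genes of the study's own lists, that step left 5 of the 7 chains (COL1A1, COL4A1, COL5A1, COL8A1 and COL10A1; 1.07% of all probe sets were lower after it) and took out COL11A1 and COL14A1. Those 2 chains had moved the opposite way in MIO-M1-CTG(0) cells.

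In MIO-M1-CTG(0) cells, 3 chains rose with Dox (0.580% of all probe sets were higher) and 0 fell (0.600% of all probe sets were lower). At an unadjusted limma p under 0.05, 6 chains were higher (4.05% of all probe sets) and 0 lower (4.34%). With Benjamini-Hochberg adjustment, and likewise by the methods' t-test at the threshold, 0 chains passed in either direction (by that t-test 0.193% of all probe sets were higher and 0.158% lower). After adjustment only 4 of the 36176 probe sets were higher and 2 lower, so the 0 there says nothing about the collagens. When each array was centred on its median, the 3 calls were unchanged but the split over all probe sets moved to 167 higher and 283 lower, against 210 higher and 217 lower as deposited. The median over the 41 chains was 0.11, against -0.01 over all probe sets, and 31 of the 41 values lay above 0. The groups did not overlap for 5 chains that were higher (6.51% of all probe sets) and 1 that was lower (6.42%).

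COL14A1 gave 12.56, 12.59 and 13.17 in Dox-induced MIO-M1-CTG(0) cells, against 11.77, 11.66 and 11.92 in non-induced cells. All 3 induced arrays lay above the non-induced ones, a 1.99-fold rise (log2 fold change 0.99, adjusted p = 0.195). COL11A1 gave 13.93, 13.86 and 14.64 with Dox, against 13.17, 13.45 and 13.36 without it (log2 fold change 0.82, adjusted p = 0.347). COL12A1, a FACIT chain that links fibrils to other matrix proteins, gave 13.71, 13.78 and 14.54 with Dox, against 13.11, 13.41 and 13.11 without it. This was a 1.74-fold rise (log2 fold change 0.80, adjusted p = 0.347). On each of the 3, replicate 3 of the Dox-induced cells was the highest array, and without it the log2 fold changes were 0.79 for COL14A1, 0.57 for COL11A1 and 0.54 for COL12A1, of which only COL14A1 passed. COL11A1 and COL12A1 also fell short when replicate 1 or replicate 3 of the non-induced cells was left out, whereas COL14A1 passed whichever of the 12 arrays was left out.

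The promoter stretches of COL11A1 and COL12A1 are shown because both chains rose with Dox in MIO-M1-CTG(0). They are the 250 bases before the start of each gene on the minus strand, from RefSeq on GRCh38.p14, at chr1:103108523-103108772 and chr6:75206054-75206303, written 5′ to 3′. Capitals mark 3 motifs that were searched on both strands, the CCAAT box (CCAAT), the TATA box (TATAAA) and the GC box (GGGCGG).
COL11A1 upstream: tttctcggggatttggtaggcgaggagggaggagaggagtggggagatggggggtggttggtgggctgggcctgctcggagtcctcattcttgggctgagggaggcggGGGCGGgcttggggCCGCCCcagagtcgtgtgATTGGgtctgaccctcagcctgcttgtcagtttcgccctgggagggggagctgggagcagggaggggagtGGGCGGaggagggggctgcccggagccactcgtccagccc
COL12A1 upstream: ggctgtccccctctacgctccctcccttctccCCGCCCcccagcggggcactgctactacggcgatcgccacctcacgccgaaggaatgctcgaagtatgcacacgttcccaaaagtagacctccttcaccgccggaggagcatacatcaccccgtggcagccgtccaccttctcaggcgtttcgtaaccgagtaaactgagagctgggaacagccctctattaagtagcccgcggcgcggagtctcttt
The COL11A1 stretch held a CCAAT box on the reverse strand and 3 GC boxes, and that of COL12A1 held 1 GC box on the reverse strand. Windows of 300 bases (250 before to 50 after the start) were at hand for 30 of the 41 members. A GC box was found in 17 of them (56.7%, against 44.6% of all 27305 gene windows), a CCAAT box in 9 (30.0%, against 35.7%) and a TATA box in 3 (10.0%, against 12.0%).

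Whether Dox acted alike in both lines was tested as an interaction, the Dox effect in MIO-M1-CTG(648) minus that in MIO-M1-CTG(0). It passed the threshold for 8 of the 41 chains, all negative (1.22% of all probe sets were negative), and for 0 in the positive direction (1.10% of all probe sets). At an unadjusted limma p under 0.05 there were 13 negative (5.14% of all probe sets) and 0 positive chains (5.43%). The median was -0.22, against 0.02 over all probe sets, and 29 of the 41 values lay below 0. COL14A1 (-2.14, adjusted p = 0.00435) and COL11A1 (-1.87, adjusted p = 0.0145) also passed after adjustment, where 0.232% of all probe sets were negative.

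**Figure D2:**
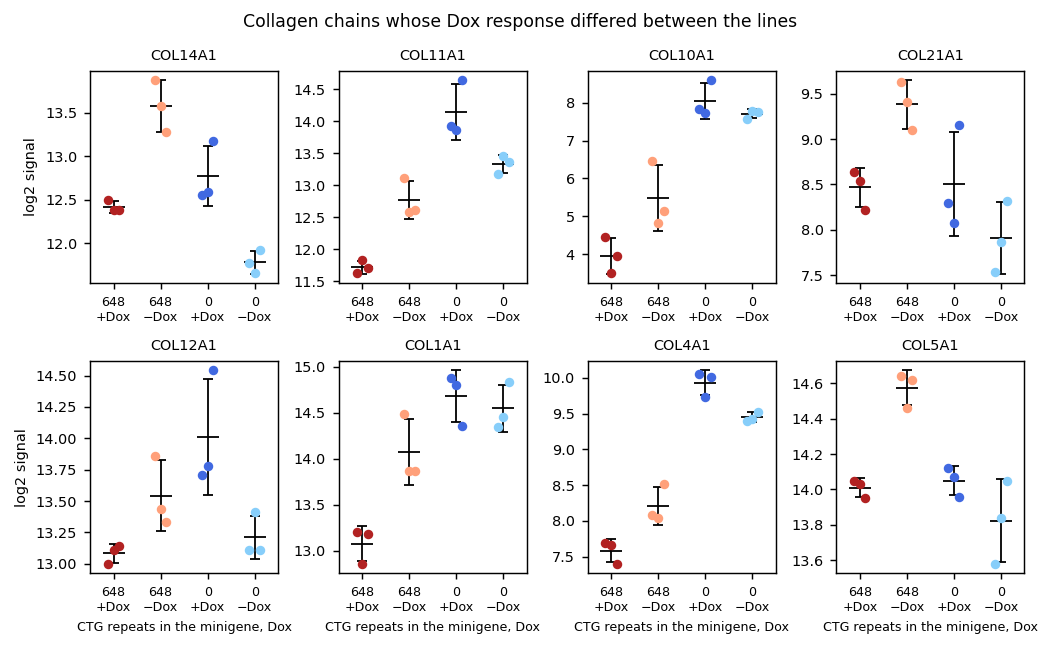
The log2 signal (vertical axis, a different range in each panel) on each array for the 8 chains past the unadjusted threshold in the interaction, of which only COL14A1 and COL11A1 passed after adjustment. The horizontal axis gives the CTG repeats of the minigene and Dox, points are arrays, and bars show the mean and SD of 3. COL14A1 and COL11A1 are lower with Dox in the CTG(648) line and higher with it in the CTG(0) line.

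The other 6 were COL10A1 (-1.86), COL21A1 (-1.51), COL12A1 (-1.26), COL1A1 (-1.13), COL4A1 (-1.11) and COL5A1 (-0.79). COL12A1 gave 13.00, 13.11 and 13.14 in Dox-induced MIO-M1-CTG(648) cells, against 13.86, 13.44 and 13.33 in non-induced cells, and this fold change of -0.46 had not passed on its own. COL21A1 encodes a FACIT chain found in vessel walls. Its signals were 8.64, 8.54 and 8.22 in Dox-induced MIO-M1-CTG(648) cells, against 9.63, 9.41 and 9.10 in non-induced cells, a log2 fold change of -0.91 that did not pass. In MIO-M1-CTG(0) cells COL21A1 gave 8.30, 8.07 and 9.15 with Dox, against 7.54, 7.87 and 8.32 without it, and the groups overlapped (log2 fold change 0.60).

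The other 4 chains showed smaller Dox effects in MIO-M1-CTG(0). COL1A1 gave 14.88, 14.80 and 14.36 in Dox-induced MIO-M1-CTG(0) cells, against 14.35, 14.46 and 14.84 in non-induced cells, and its groups overlapped. COL5A1 gave 14.12, 14.07 and 13.96 with Dox, against 13.58, 13.84 and 14.05 without it, and COL10A1 gave 7.83, 7.73 and 8.60, against 7.58, 7.80 and 7.77. Both of these overlapped as well. COL4A1 gave 10.05, 9.73 and 10.01 with Dox, against 9.40, 9.43 and 9.53 without it, all induced arrays higher, but at 0.48 on the log2 scale within the limit.

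Single arrays carried part of these values. Within non-induced MIO-M1-CTG(648), replicate 1 was the highest array for 7 of the 8 chains (median deviation from the group mean 0.31). In Dox-induced MIO-M1-CTG(0), replicate 3 was the highest for 5 of the 8 (median deviation 0.45), and that array also had the highest summed fibroblast and pericyte signal (17.18, against 16.62 to 16.69 on the other 2 arrays of its group). Non-induced MIO-M1-CTG(0) replicate 1 was the lowest of its group for 7 of the 8, in 1 case tied. With non-induced MIO-M1-CTG(648) replicate 1 and Dox-induced MIO-M1-CTG(0) replicate 3 left out together, a choice made after seeing the values, 5 of the 8 passed: COL11A1, COL12A1, COL14A1, COL1A1 and COL4A1. Without non-induced MIO-M1-CTG(0) replicate 1 alone, 4 passed, and without replicate 3 of Dox-induced or replicate 1 of non-induced MIO-M1-CTG(648), 5 passed in each case.

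**Figure D3:**
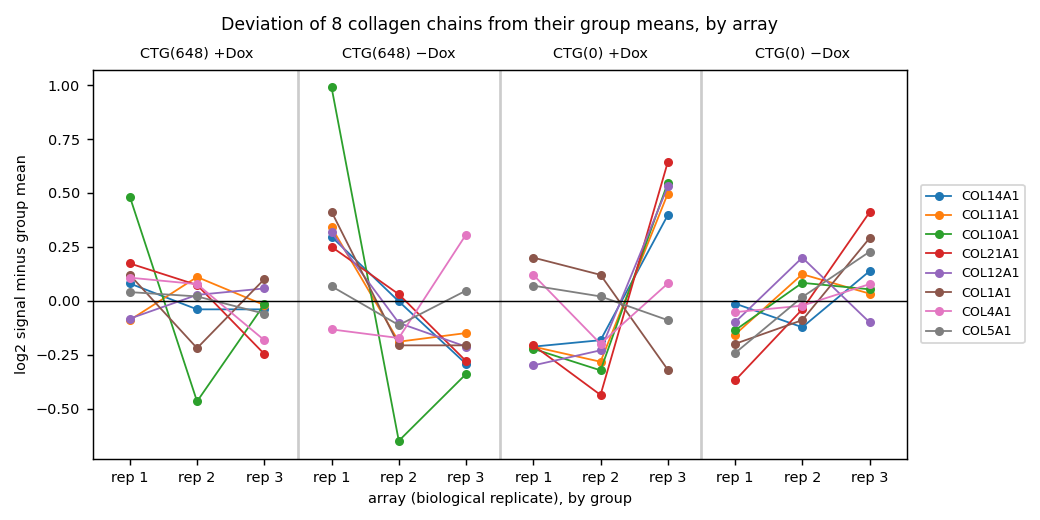
The deviation of each of the 8 chains from its group mean (vertical axis, log2 signal) on each of the 12 arrays (horizontal axis, by group); lines join the arrays of a group and colours mark the chains. The values of non-induced MIO-M1-CTG(648) replicate 1 and Dox-induced MIO-M1-CTG(0) replicate 3 lie mostly above 0, with median deviations of 0.31 and 0.45.

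Markers of other cell types were read in the same comparisons. Of the 12 fibroblast and pericyte markers, 4 were lower in contrast A, where 1.14% of all probe sets were (ACTA2 by -0.88, PDGFRB by -0.90, FAP by -0.92 and PDGFRA by -1.05 on the log2 scale) and the same 4 were negative in the interaction (1.22% of all probe sets). With Dox in MIO-M1-CTG(0), 0 of the 12 were higher (0.580% of all probe sets) and 0 lower (0.600%) by limma. At an unadjusted limma p under 0.05, 2 were higher (4.05% of all probe sets) and 0 lower (4.34%). Between the non-induced lines 2 were higher (5.63% of all probe sets) and 5 lower (6.11%), down to -7.04 for LUM. The endothelial marker KDR (-0.87) and the neuronal marker SYT1 (-1.05) also passed in the interaction, 1 of 6 and 1 of 5 markers of their lists, and no marker of the 12 Müller, 6 pigment epithelial, 4 astrocyte and 4 leukocyte ones did. In contrast A 1 of the 12 Müller markers was higher (1.28% of all probe sets), SLC1A3 by 0.71, and 0 were lower (1.14%). Without Dox 4 Müller markers were higher in MIO-M1-CTG(648) (5.63% of all probe sets), CRYAB (4.95), DKK3 (1.08), CD44 (0.68) and SOX9 (0.51). There 1 was lower (6.11%), SLC1A3 by -1.92. The part of these markers' cells in the collagen values was not tested.

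Between the non-induced lines, which the study compared to find genes set apart by the insertion site, 6 chains were higher (5.63% of all probe sets) and 6 were lower (6.11% of all probe sets) in MIO-M1-CTG(648) cells, and all 12 passed after adjustment. The largest difference lay in collagen VI, whose alpha 1, alpha 2 and alpha 3 chains assemble into 1 molecule. COL6A3 gave 4.66, 4.44 and 4.65 in the non-induced CTG(648) line, against 13.56, 13.95 and 13.96 in the non-induced CTG(0) line. The CTG(648) arrays were near the array median for this chain, so that the log2 fold change of -9.24 is a large difference of no exact size. The Dox-induced MIO-M1-CTG(648) arrays gave 4.77, 5.45 and 4.74, against 13.82, 14.12 and 13.77 in the Dox-induced CTG(0) line. In contrast A the chain did not pass (log2 fold change 0.40, 95% confidence interval -0.03 to 0.84).

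COL6A1 gave 15.16, 15.22 and 15.17 in the non-induced CTG(648) line, against 15.81, 16.04 and 16.05 in the CTG(0) line (log2 fold change -0.78, adjusted p = 0.00181). COL6A2 gave 14.37, 14.22 and 14.41, against 15.64, 15.76 and 15.68 (log2 fold change -1.36, adjusted p = 1.12e-05). Both partner chains were far above the array median in either line. With the mean over the 3 COL6A2 probe sets, 2 of them dim, the COL6A2 difference was -0.45 and no longer passed. COL6A5 and COL6A6 encode alternatives to the alpha 3 chain, and COL6A5 was at 2.77 to 3.76 and COL6A6 at 3.42 to 4.65 over all 12 arrays.

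The COL6A3 promoter is shown since this chain separates the lines most. The 250 bases before the gene's start on the minus strand of chr2:237414165-237414414 (RefSeq, GRCh38.p14) held none of the 3 motifs.
COL6A3 upstream: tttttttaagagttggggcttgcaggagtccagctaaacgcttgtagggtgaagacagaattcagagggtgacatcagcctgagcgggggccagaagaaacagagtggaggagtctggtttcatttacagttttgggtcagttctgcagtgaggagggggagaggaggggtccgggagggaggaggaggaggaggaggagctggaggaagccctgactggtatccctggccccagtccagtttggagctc

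Further chains were lower in the non-induced CTG(648) line. COL10A1 gave 6.47, 4.83 and 5.14, against 7.58, 7.80 and 7.77 in the CTG(0) line (log2 fold change -2.24, adjusted p = 0.00119). COL24A1, a fibrillar chain known from developing bone and cornea of the mouse, gave 5.84, 6.22 and 5.76, against 7.33, 7.27 and 8.29 (log2 fold change -1.69, adjusted p = 0.000837). COL4A1 gave 8.08, 8.04 and 8.52, against 9.40, 9.43 and 9.53 (log2 fold change -1.24, adjusted p = 0.000209). For each of the 3, every array of one line lay apart from every array of the other.

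Among the 6 that were higher in non-induced MIO-M1-CTG(648), COL14A1 gave 13.87, 13.57 and 13.28, against 11.77, 11.66 and 11.92 in the non-induced CTG(0) line, a 3.46-fold difference (log2 fold change 1.79, adjusted p = 3.45e-05). COL21A1 gave 9.63, 9.41 and 9.10, against 7.54, 7.87 and 8.32 (log2 fold change 1.47, adjusted p = 0.00260). Both are FACIT chains. COL5A1 gave 14.64, 14.46 and 14.62, against 13.58, 13.84 and 14.05 (log2 fold change 0.75, adjusted p = 0.00360).

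COL18A1, the multiplexin of basement membranes from which endostatin is cut, gave 7.92, 7.77 and 8.05 in non-induced MIO-M1-CTG(648), against 7.01, 6.96 and 7.23 in the CTG(0) line (log2 fold change 0.85, adjusted p = 0.00975). COL8A2, the partner of COL8A1, gave 6.30, 5.77 and 5.91, against 4.95, 5.18 and 5.30 (log2 fold change 0.85, adjusted p = 0.0141). Both were higher on all 3 arrays of the CTG(648) line. COL4A4, a chain of specialised basement membranes such as that of the kidney glomerulus, gave 5.32, 5.75 and 5.18, against 4.53, 4.68 and 3.71 (log2 fold change 1.11, adjusted p = 0.00829).

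**Figure D4:**
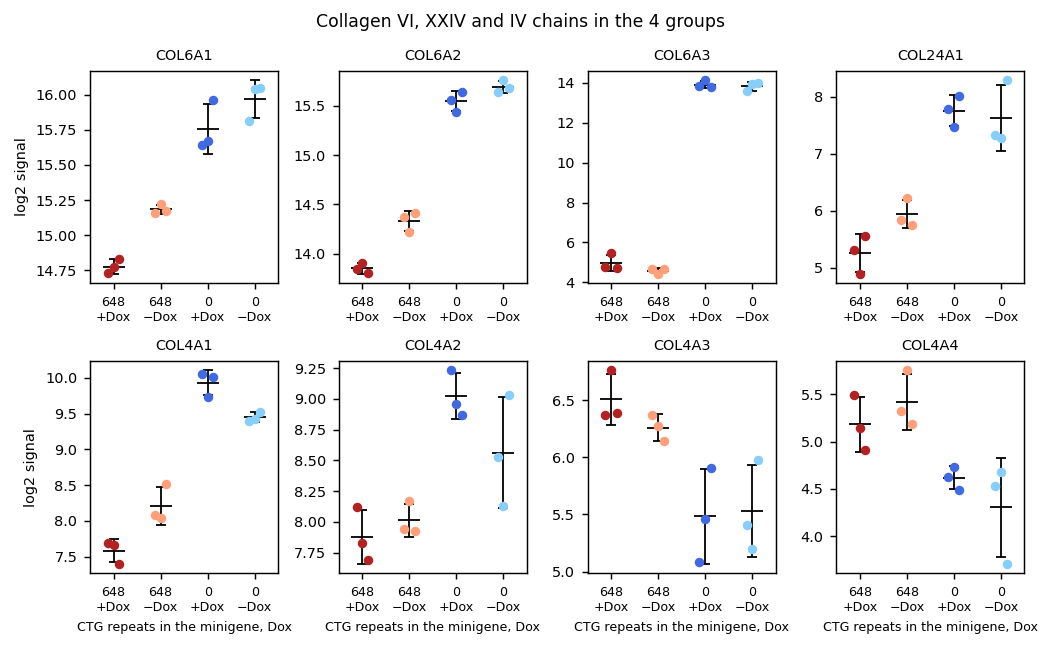
The log2 signal (vertical axis, a different range in each panel) of collagen VI, XXIV and IV chains on each array; the horizontal axis gives the CTG repeats of the minigene and Dox, points are arrays, and bars show the mean and SD of 3. COL6A3 is at 4.44 to 5.45 in the CTG(648) line and at 13.56 to 14.12 in the CTG(0) line, and the collagen IV chains differ in opposite directions.

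Contrast B compared the lines after induction. In Dox-induced MIO-M1-CTG(648) cells 2 chains were higher (6.34% of all probe sets) and 12 were lower (5.33%) than in Dox-induced MIO-M1-CTG(0) cells, with a median over the 41 of -0.01, against 0.01 over all probe sets. The study removed genes that already differed between the non-induced lines. Rerun here on the deposited values, that step left 2 higher (2.86% of all probe sets), COL4A3 and COL9A3. It left 6 lower (2.19%), COL1A1, COL4A2, COL8A1, COL11A1, COL12A1 and COL19A1. The removed 6 were COL4A1, COL6A1, COL6A2, COL6A3, COL10A1 and COL24A1. Chains left by this step could still differ without Dox, short of the threshold. Their log2 fold changes between the non-induced lines were 0.73 for COL4A3, 0.25 for COL9A3, -0.55 for COL4A2 and -0.56 for COL11A1. They were -0.47 for COL1A1, -0.30 for COL8A1, -0.41 for COL19A1 and 0.33 for COL12A1.

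COL11A1 gave 11.63, 11.83 and 11.70 in Dox-induced MIO-M1-CTG(648) cells, against 13.93, 13.86 and 14.64 in the Dox-induced CTG(0) line, and was 5.36-fold lower (log2 fold change -2.42, standard error 0.21). COL1A1 gave 13.20, 12.86 and 13.18, against 14.88, 14.80 and 14.36, and was 3.03-fold lower (log2 fold change -1.60, adjusted p = 0.000227). COL12A1 gave 13.00, 13.11 and 13.14, against 13.71, 13.78 and 14.54 (log2 fold change -0.93, adjusted p = 0.0118). In these 3 chains the groups lay apart. COL8A1 gave 12.51, 12.00 and 12.48, against 13.34, 13.27 and 12.98 (log2 fold change -0.87, adjusted p = 0.00565).

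COL4A2, the partner of COL4A1 in the common collagen IV molecule, gave 8.12, 7.83 and 7.69 in Dox-induced MIO-M1-CTG(648) cells, against 9.23, 8.96 and 8.87 in the CTG(0) line (log2 fold change -1.14, adjusted p = 0.00270). The probe set that stood for COL4A3 went the other way, with 6.37, 6.76 and 6.39, against 5.08, 5.46 and 5.91 (log2 fold change 1.02, adjusted p = 0.00999). This probe set has no gene number in the platform annotation, and the other COL4A3 probe set lay at 3.26 to 4.32 on all arrays and differed by 0.05. Whether the brighter one reads COL4A3 RNA was not tested, so its place among the higher chains of contrast B is uncertain. The 2 remaining chains were dim. COL9A3, a chain of the cartilage and vitreous collagen IX, gave 3.59, 3.40 and 3.60, against 2.93, 2.97 and 2.95. COL19A1, a FACIT chain of basement membrane zones, gave 2.18, 2.30 and 2.26, against 2.89, 2.81 and 2.74, and both differences (0.58 and -0.57 on the log2 scale) are between signals below the array medians.

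The chains of collagen IV lie in pairs that start back to back, and 2 of these pairs are printed because their chains differed between the lines. COL4A1 (minus strand) and COL4A2 (plus strand) start 126 bases apart at chr13:110307158-110307283, and COL4A4 (minus) and COL4A3 (plus) start 135 bases apart at chr2:227164489-227164623. The plus strand between the starts is given (RefSeq, GRCh38.p14), with the same motifs in capitals.
between COL4A1 and COL4A2: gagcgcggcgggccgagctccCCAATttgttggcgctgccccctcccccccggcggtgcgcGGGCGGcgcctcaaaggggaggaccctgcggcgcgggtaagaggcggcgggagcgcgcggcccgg
between COL4A4 and COL4A3: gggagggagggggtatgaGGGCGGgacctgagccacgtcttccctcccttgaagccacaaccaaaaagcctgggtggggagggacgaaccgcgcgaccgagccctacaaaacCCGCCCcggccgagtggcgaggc
The first stretch held 1 CCAAT box and 1 GC box, and the second held 2 GC boxes. In contrast B, COL4A1 and COL4A2 were both lower (-2.35 and -1.14), and COL4A4 was at 0.56 and not past the threshold. The probe set that stood for COL4A3 was higher (1.02), but it lacks a gene number, and the other COL4A3 probe set differed by 0.05.

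Chains that join into 1 molecule were compared with each other. For 4 such pairs, the difference between both chains' log2 signals on an array was compared in 4 contrasts with a 2-sided exact permutation test, in which 3 arrays against 3 cannot give a p below 0.1, and the 16 tests gave no adjusted p under 0.16. The values are therefore a description. Within contrast A, the log2 fold change of COL1A1 minus that of COL1A2 was -0.73, without overlap between groups. It was -0.50 for COL4A1 minus COL4A2 and -0.21 for COL5A1 minus COL5A2, likewise without overlap, and 0.07 for COL6A1 minus COL6A2, with overlap. In contrast B it was -1.75 for COL1A1 minus COL1A2 and -1.21 for COL4A1 minus COL4A2, against 0.71 for COL6A1 minus COL6A2 and 0.28 for COL5A1 minus COL5A2, all 4 without overlap. Between the non-induced lines it was -0.91 for collagen I, 0.52 for collagen V and 0.58 for collagen VI, without overlap, and -0.69 for collagen IV, with overlap. With Dox in MIO-M1-CTG(0) all 4 pairs overlapped.

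The 21 members that passed in no comparison had log2 fold changes of -0.72 to 0.38 in contrast A, -0.52 to 0.18 in contrast B, -0.20 to 0.26 with Dox in MIO-M1-CTG(0), -0.23 to 0.46 between the non-induced lines and -0.98 to 0.30 in the interaction. Of these, 12 had a mean of at least 5 in a group: the fibrillar COL1A2, COL2A1, COL5A2, COL5A3 and COL27A1, the basement membrane chain COL4A5, and COL9A1, COL15A1, COL20A1, COL23A1, COL25A1 and COL26A1 of other classes. The other 9 (COL4A6, COL6A5, COL6A6, COL9A2, COL11A2, COL13A1, COL16A1, COL22A1 and COL28A1) stayed below 5 in every group mean. COL2A1, the main vitreous and cartilage collagen, gave 7.24 to 8.11 in Dox-induced and 7.50 to 7.81 in non-induced MIO-M1-CTG(648) cells, and 7.54 to 7.99 in Dox-induced and 7.36 to 8.15 in non-induced MIO-M1-CTG(0) cells, all overlapping.

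Enzymes that modify, cut and cross-link collagen were read from a list of 32 genes, of which 30 were measured. In contrast A 0 were higher (1.28% of all probe sets) and 3 were lower (1.14%), FKBP10, LOXL3 and PCOLCE2, and the median of the 30 was -0.17, against 0.01 over all probe sets. At an unadjusted limma p under 0.05, 2 were higher (5.63% of all probe sets) and 10 lower (5.14%). LOXL3, a lysyl oxidase that cross-links collagen, gave 12.14, 11.79 and 12.09 in Dox-induced MIO-M1-CTG(648) cells, against 13.59, 13.72 and 13.80 in non-induced cells. It fell by 1.70 on the log2 scale (adjusted p = 0.000765) and was the list's 1 call in the interaction (-1.91, adjusted p = 0.00855), where 1.22% of all probe sets were negative. FKBP10, a collagen folding factor, gave 13.34, 13.30 and 13.21, against 13.90, 13.86 and 13.79 (log2 fold change -0.57). PCOLCE2, an enhancer of procollagen cleavage, gave 9.10, 9.16 and 9.00, against 9.80, 9.94 and 9.53 (log2 fold change -0.67), and neither of these passed after adjustment.

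Between the non-induced lines, 8 of the 30 were higher (5.63% of all probe sets) and 3 were lower (6.11%) on the CTG(648) side. PCOLCE, the main enhancer of procollagen cleavage, gave 5.80, 4.82 and 5.34 in non-induced MIO-M1-CTG(648), against 12.96, 13.05 and 12.87 in the non-induced CTG(0) line. It was the member of this list furthest apart between the non-induced lines (log2 fold change -7.64). The other extremes were P3H2, a prolyl 3-hydroxylase that acts on collagen IV (15.66 to 15.90, against 12.09 to 12.60, a log2 fold change of 3.41), LOXL3 (2.23), P3H3 (2.11), the procollagen protease TLL1 (-1.15) and the lysyl hydroxylase PLOD2 (-0.68). P3H2 was also the 1 member that rose with Dox in MIO-M1-CTG(0), where 0.580% of all probe sets were higher, with 13.00, 12.98 and 12.80, against 12.09, 12.39 and 12.60 (log2 fold change 0.57, adjusted p = 0.354). In contrast B 5 were higher (6.34% of all probe sets) and 8 lower (5.33%).

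Of 10 collagen receptors 8 were measured, and in contrast A 1 was higher (1.28% of all probe sets) and 1 lower (1.14%). ITGA11, the integrin subunit that binds collagen I, gave 13.01, 12.83 and 13.00 in Dox-induced MIO-M1-CTG(648) cells, against 14.42, 13.78 and 13.81 in non-induced cells (log2 fold change -1.06, adjusted p = 0.0523). In MIO-M1-CTG(0) cells it gave 12.76, 12.70 and 13.39 with Dox, against 11.88, 12.26 and 12.35 without it (0.79, adjusted p = 0.366). The interaction was -1.84 (adjusted p = 0.0193), the 1 receptor that passed there (1.22% of all probe sets were negative), and without Dox ITGA11 was higher in MIO-M1-CTG(648) by 1.84. ITGA2, a subunit for collagens I and IV, was the 1 receptor that rose in contrast A (8.93, 9.05 and 9.21, against 8.60, 8.29 and 8.27, a log2 fold change of 0.68) and was lower between the non-induced lines (-0.81). MRC2, the receptor that takes up collagen for breakdown, was the second to rise with Dox in MIO-M1-CTG(0) (11.93, 11.80 and 11.74, against 11.10, 11.32 and 11.38, a log2 fold change of 0.56, adjusted p = 0.394). In that comparison 2 of the 8 receptors were higher (0.580% of all probe sets) and 0 lower (0.600%). In contrast B 0 were higher (6.34%) and 2 lower (5.33%).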

How the data were processed

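The 12 Clariom D Human arrays were read as deposited. The authors' values are log2 signals per probe set, made by RMA background correction and quantile normalization. RMA and hg38 are named in the submitters' processing notes, with versions not given in the sources used here. Quantile normalization brings all arrays close to one distribution (medians of the deposited values 4.24 to 4.32), so levels are relative to the array. Groups came from the sample labels. Of 135750 probe sets, 36176 had 1 gene symbol, 1119 several and 98455 none in the platform annotation. Gene numbers matched RefSeq (GRCh38.p14) for 40 members, and 1 matched by symbol.

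A linear model with the 4 groups was fitted over the 36176 probe sets with limma 3.58.1 in R 4.3.3 (8 residual and 5.11 prior degrees of freedom), as the study's methods name limma and these limits (log2 fold change above 0.5, p under 0.005). Benjamini-Hochberg adjustment ran over the same probe sets. The script was tested on simulated data. Nothing says that replicates shared a batch, and 3 arrays a group limit precision. The p-values set a difference between groups against the spread between these cultures, which limma draws towards that of all probe sets fitted. The members and the lists of enzymes, receptors and markers were chosen with earlier results of these data known. Array values are given for chains past the threshold in contrast A, with Dox in MIO-M1-CTG(0), in the interaction, in contrast B after removal, and for up to 8 highest and 8 lowest between the non-induced lines; list genes are named where they passed in contrast A, with Dox in MIO-M1-CTG(0) or in the interaction, with the 3 highest and 3 lowest between the non-induced lines. COL1A2, COL2A1 and the cell type markers named were chosen after their values were seen. Other p-value, fold, prior, weight, normalization, filter and probe set choices, a replicate block and leaving out each array were tried.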

Additional observations from a re-analysis of the deposited data

Results flagged for a closer look

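The response to Dox differed between the lines by the interaction test, at an unadjusted p under 0.005, for 8 chains. The Dox effect in MIO-M1-CTG(648) minus that in MIO-M1-CTG(0), on the log2 scale, was -2.14 for COL14A1, -1.87 for COL11A1, -1.86 for COL10A1, -1.51 for COL21A1, -1.26 for COL12A1, -1.13 for COL1A1, -1.11 for COL4A1 and -0.79 for COL5A1. COL14A1 and COL11A1 passed after adjustment over all probe sets (adjusted p = 0.00435 and 0.0145), and the other 6 had adjusted p-values of 0.0649 to 0.189.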

How the results depend on the processing

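The number of collagen chains past the threshold was 7 in contrast A, 14 in contrast B, 3 with Dox in MIO-M1-CTG(0), 12 between the non-induced lines and 8 in the interaction. With Benjamini-Hochberg adjustment it was 2 in contrast A, 0 with Dox in MIO-M1-CTG(0) and 2 in the interaction. With a log2 fold change over 1, which fewer probe sets passed too, the number was 0 with Dox in MIO-M1-CTG(0), likewise uninformative. With that limit the number of chains was 3 in contrast A and 9 in contrast B. By the methods' t-test, which has fewer degrees of freedom, it was 3 in contrast A, 0 with Dox in MIO-M1-CTG(0) and 6 between the non-induced lines; with Benjamini-Hochberg adjustment of that test alone, 0, 0 and 6 passed, and 11 in contrast B. With 2 arrays left out together, chosen after the values were seen, 5 were left in the interaction. Leaving out each array in turn gave 4 to 9 chains in contrast A (4 without Dox-induced MIO-M1-CTG(648) replicate 2), 12 to 14 in contrast B, 1 to 3 with Dox in MIO-M1-CTG(0), 11 to 13 between the non-induced lines and 4 to 9 in the interaction. All other settings left these counts within 1.5 times; a fit over all 135750 probe sets gave 5, 12, 3, 12 and 7. The cause of these shifts was not tested. Of the 44 single values named, 0 changed direction; over all alternatives, single arrays left out included, their values kept the call 958 times and lost it 124 times. In the interaction, COL14A1, COL11A1, COL12A1 and COL4A1 passed in all 12 fits that left out 1 array, COL21A1 in 9, and COL10A1, COL1A1 and COL5A1 in 6 each.

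Same-numbered replicates did not deviate together (correlation of deviations -0.078 to 0.073 over 18 pairs), so no effect shared by a replicate number was seen. Whether same-numbered cultures were handled together cannot be read from this. With the replicate number as a block, 6 chains passed in contrast A, 12 in contrast B, 2 with Dox in MIO-M1-CTG(0), 12 between the non-induced lines and 8 in the interaction. Chains near the array medians, such as COL6A3 and COL10A1 in MIO-M1-CTG(648), have differences of no exact size.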

Other observations

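COL1A1, COL1A2, COL4A3 and COL6A2 had further probe sets that were not used. The dimmer COL1A1 probe set gave 7.70, 8.27 and 7.59 in Dox-induced MIO-M1-CTG(648) cells, against 7.74, 8.88 and 8.20 in non-induced cells, and its log2 fold change of -0.42 in contrast A did not pass. The dimmer COL1A2 probe set differed by 0.18 in contrast A and did not pass. A dim COL6A2 probe set was lower in Dox-induced MIO-M1-CTG(648) than in Dox-induced MIO-M1-CTG(0) cells by -1.13, past the threshold, and another differed by 0.16. Whether these further probe sets read the same RNA as the ones used was not tested.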
